A study of Sus scrofa with 6 samples.

Results

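The citrate cycle, the entry of pyruvate into it and the aspartate aminotransferases of the malate-aspartate shuttle were examined through a list of 32 genes, matched by gene symbol to the Ensembl identifiers of the deposited expression table. Rows were found for 30 of the 32 among 12671 loci, and 29 passed the filter on low expression. MPC1 and PCK2 had no row under these symbols and were not analysed here, and PDP2 stayed under the filter. The study sequenced RNA of longissimus dorsi, a large back muscle, from female QingYu pigs (strain label Qinyu Pig), with 3 libraries at the growth inflection point (IP), the age of fastest growth, and 3 at the plateau phase (PP). QingYu is an indigenous pig breed of southwestern China, and no treatment was given in either group. The paper reports the same diet for all pigs, with nutrient levels set to recommendations by growth phase. The growth protocol places the IP at 178 days and the PP at 395 days, although the age label of all 6 libraries reads 178 days. Phase cannot be told apart from age or from any change of feed with growth phase. Each phase is represented by 3 libraries of 1 breed and 1 sex. Libraries were made from RNA selected for a poly(A) tail.

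Pyruvate from glycolysis crosses the inner mitochondrial membrane through the MPC1-MPC2 carrier and is turned into acetyl-CoA by the pyruvate dehydrogenase complex (PDH). PDH is switched off by kinases (PDK) and on by phosphatases (PDP). Citrate synthase joins acetyl-CoA to oxaloacetate, and the cycle then regenerates oxaloacetate while making NADH, FADH2 and ATP or GTP. In muscle the cycle serves oxidative ATP supply, and the cytosolic and mitochondrial malate dehydrogenases and aspartate aminotransferases carry reducing equivalents from glycolysis into the mitochondrion.

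Expression is given as TPM, the share of a library's transcripts after correction for transcript length, so that levels can be compared between genes of 1 library. The number of reads behind a TPM is not known. Each SD is the spread of 3 libraries, while standard errors come from a fit that also draws on the spread of other tested loci. Library medians ran from 2.98 to 6.12 TPM over all loci, and a single assembled locus, MSTRG.716, held 21.8% to 35.8% of the TPM. The first principal component of all tested loci held 64.3% of the variance and set IP replicates 1 and 2 and PP replicate 2 on one side. Muscle markers were abundant in every library, with ACTA1, the actin of skeletal muscle fibres, at 3658 to 11431 TPM. The 5 endothelial markers summed to 34.5 to 75.9 TPM and the 6 macrophage markers to 23.3 to 45.4 TPM.

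The members spanned a wide range of expression. MPC2, a subunit of the pyruvate carrier, was the most abundant at a mean of 339 TPM over the 6 libraries, followed by IDH2 at 170 TPM, and the phosphatase PDP2 was the least abundant at 0.818 TPM. PDK1, PDK2, PDK3, PDP1 and PDPR, which regulate PDH, had low means of 6.64 to 9.49 TPM, and the PDH subunits themselves had means of 17.0 to 114 TPM.

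**Figure D1:**
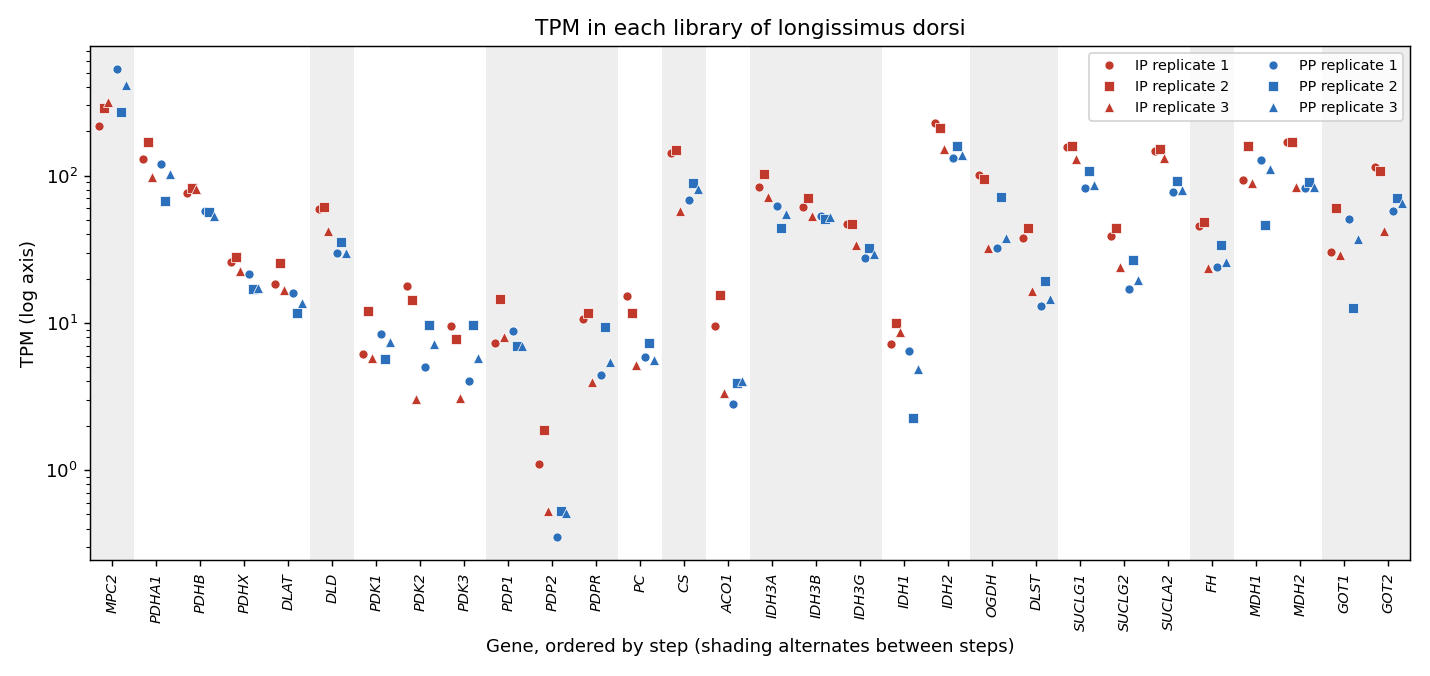
TPM (log axis) of the 30 genes found in the table in each of the 3 IP (red) and 3 PP (blue) libraries, with marker shape for the replicate number and genes ordered by step. SUCLA2 and SUCLG1 lay higher in every IP library, MPC2 had its highest values at the PP, and IP replicate 3 was the lowest of the 6 libraries for CS, OGDH, PC and GOT2.

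Comparing the phases, 28 of the 29 tested members had a log2 fold change (IP minus PP, on log2(TPM + 1)) above 0, beside 82.6% of all 10896 tested loci, and MPC2 was the exception. After adjustment over all tested loci none of the 29 passed (limma, Benjamini-Hochberg, background 0.147%, of which 0.101% of loci were higher at the IP), and none passed in a limma fit without a trend. At an unadjusted p under 0.05, 8 members were higher at the IP (background 5.86%) and none at the PP (background 1.06%). These were SUCLA2, SUCLG1 and SUCLG2 of succinyl-CoA ligase, DLST and DLD of the 2-oxoglutarate dehydrogenase complex, IDH3A, IDH1 and PDHB. None reached a log2 fold change of 1, and 2.24% of all loci passed that fold and an unadjusted p under 0.05 with the higher value at the IP. The count moved with single libraries. It was 5 without IP replicate 1 (background 4.14%), 4 without IP replicate 2 (3.36%), 16 without IP replicate 3 (21%), 3 without PP replicate 1 (3.45%), 5 without PP replicate 2 (7.76%) and 1 without PP replicate 3 (2.37%). SUCLA2 was the member left in that last fit. In the fits with a library left out, the only member higher at the PP was MPC2, without PP replicate 2, while the background higher at the PP was 0.725%, 1.37% and 0.89% without IP replicates 1, 2 and 3 and 0.78%, 1.07% and 0.477% without PP replicates 1, 2 and 3.

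In 10 members every IP library lay above every PP library, a pattern seen in 10.8% of all tested loci. They were PDHB, PDHX, DLAT and DLD of the PDH complex, IDH3A, IDH3B and IDH3G of the NAD-dependent isocitrate dehydrogenase, IDH1, SUCLG1 and SUCLA2. In no member did every PP library lie above every IP library (background 2.02%).

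The values are shares, and most loci stood higher at the IP, so the members were also set against the shift of all loci. The median log2 fold change was 0.45 for the 29 members and 0.25 for all tested loci, a difference of 0.20, and 25 of the 29 lay above the median of all loci. IDH3B, PDK1, PDK3 and MPC2 lay below it. With median-ratio scaling, in which a size factor per library removes the general shift, the members' median was 0.13 and that of all loci was -0.0060. The number at an unadjusted p under 0.05 then fell to 2, ACO1 and DLST (background 4.02%). It was 4 with quantile normalization (4.11%) and 5 with MSTRG.716 left out (4.94%). No member was higher at the PP at that level in these fits (backgrounds 3.95%, 4.1% and 1.98%). After the median-ratio rescaling, DLD, DLST, SUCLG1, SUCLG2 and SUCLA2 were higher in every IP library than in every PP library (5 of 29, background 6.6%), and none was lower in every IP library (background 7.26%), so PDHB, PDHX, DLAT, IDH1 and the 3 IDH3 genes were no longer among them.

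**Figure D2:**
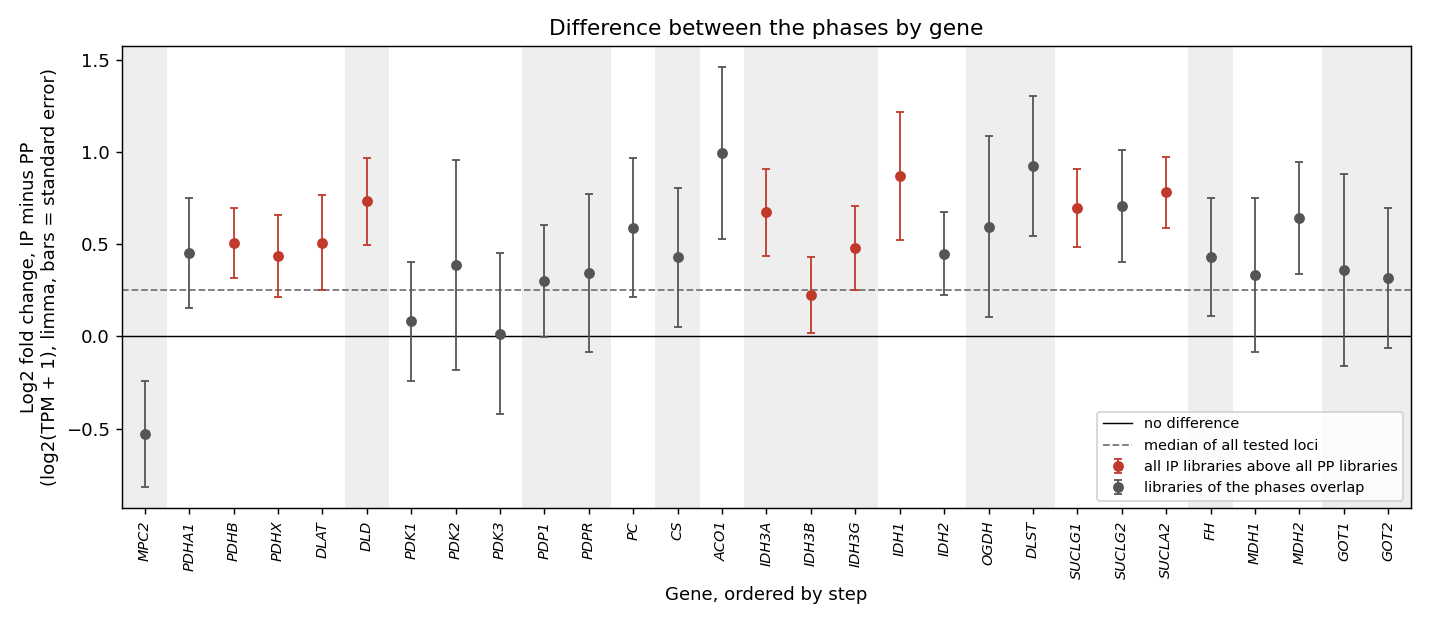
Log2 fold change (IP minus PP) with its standard error for the 29 tested members, ordered by step, with lines at 0 and at the median of all tested loci (0.25). Red points mark the 10 members whose IP libraries all lay above the PP libraries, and MPC2 (-0.53) is the point below 0.

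Library by library, the members followed the general shift but not fully. Each gene was expressed as its deviation from its own mean over the 6 libraries. In IP replicates 1 to 3 the median deviation of the members was 0.44, 0.61 and -0.16, and in PP replicates 1 to 3 it was -0.34, -0.20 and -0.27. Over all tested loci the IP libraries had 0.17, 0.45 and -0.23, and the PP libraries had -0.28, 0.13 and -0.23. The members less all loci thus gave 0.27, 0.16 and 0.07 in IP replicates 1 to 3, against -0.06, -0.33 and -0.05 in PP replicates 1 to 3, which is a description with no test. IP replicate 3 was close to the PP libraries in absolute terms. IP replicate 2 held the highest value of 21 of the 29 members. PP replicate 2 held the lowest of 10, namely PDHA1, PDHX, DLAT, PDK1, PDP1, IDH3A, IDH3B, IDH1, MDH1 and GOT1, but stood above both other PP libraries for others, such as CS, OGDH, FH, MDH2 and the 3 succinyl-CoA ligase genes.

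**Figure D3:**
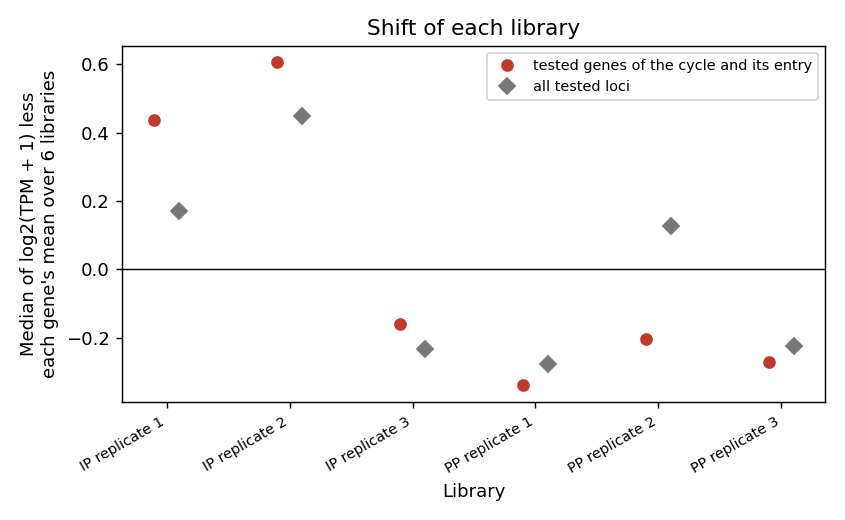
Median deviation of log2(TPM + 1) from each gene's mean over the 6 libraries, for the 29 tested members (red) and for all tested loci (grey), in each library. The red point lies above the grey in the 3 IP libraries and below it in the 3 PP libraries, by the most in PP replicate 2 (-0.20 against 0.13).

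Succinyl-CoA ligase, which splits succinyl-CoA and makes ATP or GTP, had 3 tested genes, all with an unadjusted p under 0.05. SUCLA2, the beta subunit of the ATP-forming enzyme (chromosome 11 of Sscrofa11.1, 19616415 to 19670667), had 148, 151 and 132 TPM at the IP and 77.3, 91.8 and 80.2 TPM at the PP. All IP libraries lay well above all PP libraries, with 144 ± 10.16 and 83.1 ± 7.69 TPM (SD, n = 3 libraries each), and the log2 fold change was 0.78 (standard error 0.19, adjusted p = 0.348 from limma). It kept an unadjusted p under 0.05 in 14 of 15 alternative settings and missed it with median-ratio scaling. SUCLG1, the alpha subunit shared by the ATP- and GTP-forming enzymes (chromosome 3, 60142340 to 60177497), had 157, 160 and 130 TPM at the IP against 82.1, 107 and 85.8 TPM at the PP, again with no overlap (log2 fold change 0.70). SUCLG2, the beta subunit of the GTP-forming enzyme, had 39.1, 44.1 and 23.9 TPM at the IP and 17.0, 26.9 and 19.5 TPM at the PP. IP replicate 3 thus fell under PP replicate 2 for this gene, whose log2 fold change was 0.71. Median-ratio scaling left it without overlap, at 29.1 to 33.4 rescaled TPM at the IP and 21.6 to 24.0 at the PP. The ratio of SUCLA2 to SUCLG2 ran from 3.42 to 5.53 at the IP and from 3.42 to 4.56 at the PP, so the ATP-forming subunit was the more abundant in every library and the ratio did not separate the phases (exact permutation test, 2-sided, p = 0.8, n = 3 and 3).

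The 2-oxoglutarate dehydrogenase complex, which makes succinyl-CoA, was described through OGDH (E1), DLST (E2) and DLD, the E3 subunit that it shares with PDH. DLD (chromosome 9, 107642129 to 107668443) had 59.2, 60.9 and 42.1 TPM at the IP and 29.9, 35.6 and 29.8 TPM at the PP, without overlap in either scaling (log2 fold change 0.73, standard error 0.24, adjusted p = 0.516 from limma). DLST (chromosome 7, 98091161 to 98111267) had 37.5, 43.9 and 16.4 TPM at the IP and 12.97, 19.2 and 14.5 TPM at the PP. Its 2 high IP libraries stood far above the rest while IP replicate 3 lay within the PP range, and its log2 fold change of 0.93 (standard error 0.38) was the largest of the 8 members at an unadjusted p under 0.05. Without IP replicate 2 the log2 fold change of DLST was 0.66, and without IP replicate 3 it was 1.34. OGDH was again high in IP replicates 1 and 2, with 101, 94.6 and 32.1 TPM at the IP and 32.3, 71.8 and 37.6 TPM at the PP. Its phases overlapped, as IP replicate 3 was the lowest of the 6 libraries and PP replicate 2 the third highest (log2 fold change 0.60, standard error 0.49, from 0.31 without IP replicate 1 to 1.12 without IP replicate 3).

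Among the isocitrate dehydrogenases, the NAD-dependent IDH3 runs the cycle forward, while IDH1 in the cytosol and IDH2 in the mitochondrion make NADPH. IDH3A, the catalytic subunit (chromosome 7, 47759436 to 47778948), had 84.3, 103 and 72.0 TPM at the IP and 62.2, 44.4 and 54.6 TPM at the PP, without overlap (log2 fold change 0.67, standard error 0.24, adjusted p = 0.604 from limma). IDH3B and IDH3G, the other subunits, were also higher in every IP library but with log2 fold changes of 0.22 and 0.48, and for IDH3B the lowest IP value (53.3 TPM) was next to the highest PP value (53.1 TPM). IDH1 was scarce and had 7.14, 10.03 and 8.69 TPM at the IP and 6.45, 2.26 and 4.85 TPM at the PP (log2 fold change 0.87, standard error 0.35). The distance between IP replicate 1 and PP replicate 1 was small, and without PP replicate 2, which had the low value, the log2 fold change was 0.53. IDH2 was the most abundant isocitrate dehydrogenase, with 229, 212 and 152 TPM at the IP and 131, 159 and 138 TPM at the PP, and its phases overlapped at IP replicate 3 and PP replicate 2 (log2 fold change 0.45). ACO1, the cytosolic aconitase that doubles as an iron regulatory protein, had the largest log2 fold change of the members (0.996, standard error 0.47, adjusted p = 0.758 from limma). It had 9.49, 15.4 and 3.35 TPM at the IP and 2.82, 3.90 and 4.03 TPM at the PP, so 2 libraries carried the difference and IP replicate 3 lay within the PP range. Its log2 fold change was 0.57 without IP replicate 2, below those of IDH1 and SUCLA2 in that fit (0.77 and 0.75), and 1.53 without IP replicate 3.

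CS, citrate synthase, had 142, 149 and 57.1 TPM at the IP and 68.1, 89.4 and 80.6 TPM at the PP. FH, fumarase, had 45.6, 48.7 and 23.6 TPM at the IP and 23.9, 33.8 and 25.9 TPM at the PP. In both genes IP replicate 3 was the lowest of all libraries and IP replicates 1 and 2 were the highest, and the log2 fold changes of 0.43 had standard errors of 0.38 and 0.32. With a library left out the log2 fold change of CS ran from 0.19 (without IP replicate 2) to 0.87 (without IP replicate 3), and that of FH ran from 0.25 to 0.75 in the same fits.

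The subunits PDHA1, PDHB, PDHX and DLAT had even log2 fold changes of 0.44 to 0.51, with a median of 0.48 beside 0.45 for all tested members. PDHB, the E1 beta subunit (chromosome 13, 40161519 to 40167502), had closely grouped values, with 76.2, 82.0 and 80.9 TPM at the IP and 57.2, 56.7 and 53.6 TPM at the PP. The groups of 79.7 ± 3.11 and 55.8 ± 1.93 TPM (SD, n = 3) were well apart, and the log2 fold change was 0.51 ± 0.19 (standard error), with an adjusted p = 0.656 from limma. Set against the median of all loci the difference was 0.25, and after median-ratio scaling it was 0.18, with overlap. PDHA1, the E1 alpha subunit that the kinases phosphorylate, had 130, 168 and 97.9 TPM at the IP and 119, 67.1 and 103 TPM at the PP, which overlap (log2 fold change 0.45). DLAT, the E2 subunit, and PDHX, the protein that anchors E3, were higher in every IP library (log2 fold changes 0.51 and 0.44) and were less abundant, at 11.7 to 27.9 TPM, than the E1 subunits at 53.6 to 168 TPM.

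MPC2 (chromosome 4, 83069914 to 83091687) was the only tested member with a higher mean at the PP. It had 216, 288 and 317 TPM at the IP and 527, 272 and 415 TPM at the PP (274 ± 52.1 and 405 ± 128 TPM, SD, n = 3). PP replicate 2 lay within the IP range, and the log2 fold change was -0.53 (standard error 0.29, adjusted p = 0.789 from limma), or -0.78 against the median of all loci. Without PP replicate 2 the unadjusted p was under 0.05 (background 1.07% higher at the PP), with a log2 fold change of -0.79. It was -0.31 without PP replicate 1 and -0.37 without IP replicate 1, with an unadjusted p above 0.05 in both fits. MPC2 was lowest in IP replicate 1 and PP replicate 2. In these libraries 4 marker sums were also lowest. The slow-fibre sum was 4663 and 4502 TPM against 8077 to 13715 in the other 4 libraries. All slow-fibre markers but ATP2A2 were lowest in these libraries, and ATP2A2 was lowest in PP replicate 1. The adipocyte sum was 324 and 297 TPM against 361 to 594, and most of it was FABP4 (177 and 201 TPM). Other adipocyte markers had other orders. ADIPOQ, PLIN1, PLIN4 and CIDEC were highest in IP replicate 1, and LIPE was highest in PP replicate 2. ADIPOQ, PLIN1 and CIDEC were lowest in PP replicate 2. The fibroblast sum was 244 and 198 TPM against 254 to 443, and the macrophage sum was 23.3 and 25.3 TPM against 28.4 to 45.4. DCN was the largest part of the fibroblast sum (112 and 146 TPM). COL1A1, COL1A2 and COL3A1 were higher in IP replicate 1 than in every PP library. Among the macrophage markers CD163 was highest in PP replicate 2 (6.30 TPM). The part of fibre type or of any of these cell types in the MPC2 values was not tested. In bulk muscle, fewer cells of a type and less RNA per cell cannot be told apart. The sum of 37 nuclear-encoded genes of oxidative phosphorylation was also lowest in IP replicate 1 and PP replicate 2. It was 20200 and 17357 TPM there, against 20960 to 25164 TPM in the other libraries. COX7C, its largest part, was lowest in IP replicate 2 (5099 TPM). The relation of this sum to the MPC2 values was not tested.

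The regulators of PDH overlapped between the phases. PDK2 had 17.9, 14.3 and 3.03 TPM at the IP and 4.99, 9.63 and 7.16 TPM at the PP, so that the IP libraries included both the highest values and the lowest (log2 fold change 0.39, standard error 0.57). PDK1 (5.66 to 11.96 TPM over the 6 libraries) and PDK3 (3.07 to 9.74 TPM) had log2 fold changes of 0.08 and 0.02, which were below 0 with median-ratio scaling (-0.22 and -0.27). PDP1, the calcium-stimulated phosphatase, had 7.28, 14.5 and 8.00 TPM at the IP and 8.75, 6.93 and 6.94 TPM at the PP (log2 fold change 0.30), and PDPR, the phosphatase regulatory subunit, ranged from 3.94 to 11.7 TPM (0.34). PDP2 had 1.10, 1.89 and 0.527 TPM at the IP and 0.353, 0.530 and 0.508 TPM at the PP and was not tested.

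PDK4, the fasting-responsive kinase, is not on the list but is the dominant kinase in these libraries. It made up 76.3%, 92.6% and 95.2% of the summed TPM of PDK1 to PDK4 among IP libraries and 96.7%, 97.5% and 96.7% among PP libraries. PDK4 had 108, 428 and 235 TPM at the IP and 517, 985 and 589 TPM at the PP, which did not overlap (log2 fold change -1.59, standard error 0.49, adjusted p = 0.482 from limma). The summed PDK1 to PDK3 was 33.6, 34.0 and 11.9 TPM at the IP and 17.4, 25.0 and 20.4 TPM at the PP, and these sums overlap between the phases.

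PC, pyruvate carboxylase, makes oxaloacetate from pyruvate and had 15.3, 11.8 and 5.17 TPM at the IP and 5.86, 7.28 and 5.61 TPM at the PP. IP replicate 3 was the lowest library, and the log2 fold change of 0.59 had a standard error of 0.38 and ran from 0.30 without IP replicate 1 to 1.001 without IP replicate 3. Fat cells also use this enzyme. Adipocyte markers summed to 324 to 378 TPM at the IP and 297 to 594 TPM at the PP over 6 genes, mostly FABP4. Single markers went both ways, with log2 fold changes of 1.44 for CIDEC, 0.69 for ADIPOQ and 0.26 for PLIN1. They were -0.39 for FABP4, -0.46 for PLIN4 and -0.84 for LIPE. ADIPOQ, PLIN1, PLIN4 and CIDEC were highest in IP replicate 1, as was PC. The part of fat cells in the PC values was not tested.

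The malate-aspartate shuttle pairs a mitochondrial and a cytosolic form of each enzyme, and all 4 overlapped between the phases. MDH2, the mitochondrial malate dehydrogenase of the cycle, had 169, 169 and 83.6 TPM at the IP and 82.5, 90.7 and 83.3 TPM at the PP (log2 fold change 0.64, standard error 0.30). MDH1, its cytosolic counterpart, had 93.2, 159 and 89.5 TPM at the IP and 129, 46.0 and 111 TPM at the PP (log2 fold change 0.33). GOT2, the mitochondrial aspartate aminotransferase, had 114, 107 and 42.1 TPM at the IP and 57.6, 70.8 and 64.8 TPM at the PP (log2 fold change 0.32, from 0.065 without IP replicate 1 to 0.78 without IP replicate 3). The mitochondrial enzymes were thus highest in IP replicates 1 and 2, and the cytosolic MDH1 was highest in IP replicate 2 and PP replicate 1. GOT1, the cytosolic aspartate aminotransferase, had 30.2, 60.0 and 29.0 TPM at the IP and 50.7, 12.6 and 37.3 TPM at the PP (log2 fold change 0.36), in the same library order as MDH1. Without PP replicate 2, in which both were lowest, the log2 fold changes of MDH1 and GOT1 were -0.12 and -0.21.

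Ratios of a pair of genes within a library do not depend on how the library was scaled. Of 8 pairs set, 7 could be computed and a difference between the phases was not detected in any (exact permutation tests over 3 and 3 libraries, 2-sided, smallest p = 0.5, adjusted p = 1 for all, with 0.1 the smallest p possible). The ratio of MDH1 to MDH2 was 0.551, 0.940 and 1.07 in IP replicates 1 to 3, against 1.56, 0.507 and 1.33 in PP replicates 1 to 3. For GOT1 to GOT2 the IP libraries had 0.264, 0.561 and 0.688, against 0.881, 0.177 and 0.575 for the PP libraries. In both ratios IP replicate 1 and PP replicate 2 had the lowest values. IDH1 to IDH2 was also lowest in these libraries, at 0.0311 and 0.0142 against 0.0353 to 0.0573 elsewhere. IDH2 to IDH3A was highest in them, at 2.72 and 3.58, as were PDK2 to PDHA1 (0.138 and 0.143) and PC to PDHA1 (0.118 and 0.108). In 6 of the 7 ratios, IP replicate 1 and PP replicate 2 thus took both places at one end, and SUCLA2 to SUCLG2 was the exception. The ratios share genes, so they are not 6 separate observations, and the pattern was noticed after the values were seen. In the same libraries the slow-fibre, adipocyte, fibroblast and macrophage sums were lowest, with single genes in other orders, as given for MPC2. The muscle-fibre sum was highest (70156 and 64592 TPM against 41308 to 49393), and its largest part was TNNC2 (26080 and 28737 TPM). TNNC2, TNNT3, MYL1 and CKM were highest in these libraries. ACTA1, TNNI2, DES, TCAP and CKMT2 did not share that order, and CKMT2 was lowest in PP replicate 2. The part of fibre type or of these cell types in the ratios was not tested.

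**Figure D4:**
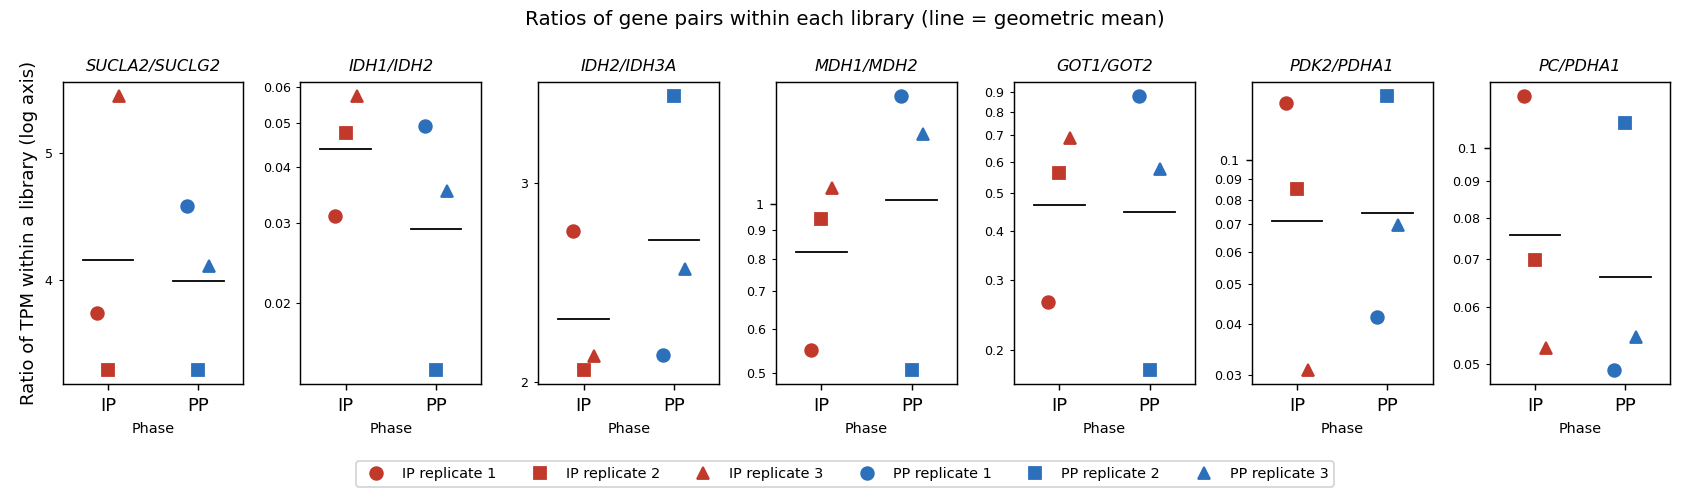
Ratio of the TPM of 7 gene pairs within each library (log axis, 1 panel per pair), by phase, with marker shape for the replicate number and a line at the geometric mean of the 3 libraries. The phases overlap in every panel, and IP replicate 1 (red circle) and PP replicate 2 (blue square) lie together at one end in 6 of them, as at 0.551 and 0.507 for MDH1 to MDH2.

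Other genes of the pathway were taken from a list of 38, of which 28 were tested. None passed after adjustment over all loci (limma). At an unadjusted p under 0.05, 7 of the 28 were higher at the IP (background 5.86%) and PDK4 was higher at the PP (background 1.06%), and the median log2 fold change was 0.38. GPD1, the cytosolic enzyme of the glycerol phosphate shuttle, came closest, with 627, 665 and 629 TPM at the IP and 273, 310 and 272 TPM at the PP (log2 fold change 1.17, standard error 0.17, adjusted p = 0.0867 from limma). The IP and PP libraries were far apart in this gene, which moves reducing equivalents into the mitochondrion by the other shuttle. LDHA, which converts pyruvate to lactate, had 2654, 2418 and 1314 TPM at the IP and 575, 1268 and 781 TPM at the PP (log2 fold change 1.30, adjusted p = 0.425). ACLY, which splits exported citrate for lipid synthesis, had 11.5, 10.7 and 6.44 TPM at the IP and 2.11, 3.94 and 2.86 TPM at the PP, and its phases did not overlap.

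Neighbouring mitochondrial lists had other medians. It was 0.26 for 37 nuclear-encoded genes of oxidative phosphorylation, close to the 0.25 of all tested loci, and -0.07 for 21 genes of fatty acid oxidation, beside 0.45 for the members. These medians were not tested against each other. Every IP library lay above every PP library in 10 of the 37 oxidative phosphorylation genes, as in 10 of the 29 members, beside 10.8% of all tested loci. The reverse was seen in none of the 37 (background 2.02%). Of the 21 fatty acid oxidation genes, 4 were higher in every IP library and 6 in every PP library. Fibroblast markers had a median of 0.94 over 6 genes, with COL1A1 at 18.1, 31.5 and 10.3 TPM at the IP and 5.65, 5.46 and 6.60 TPM at the PP, although DCN, the most abundant of them, had 112, 173 and 151 TPM at the IP and 211, 146 and 172 TPM at the PP (log2 fold change -0.28). LUM and PDGFRA overlapped between the phases, as did the summed list (244 to 443 TPM at the IP and 198 to 318 TPM at the PP). Whether connective tissue content plays a part in the members' values was not tested. The median for 8 slow-fibre markers was -0.03 and for 6 adipocyte markers -0.07.

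To show the sequence in front of these genes, promoters of 300 bases (250 before to 50 after the RefSeq gene start, Sscrofa11.1) were searched on both strands. The motifs were TCAAGGTCA of the ESRRA type, the NRF1 palindrome, and CCAAT, the box of NFY. ESRRA and NRF1 are factors of mitochondrial genes, whereas CCAAT is common in promoters and not particular to such genes. No promoter of the 30 members held the exact letters of ESRRA or NRF1, which occurred in 0.358% and 1.12% of 19559 promoters of protein-coding genes. CCAAT was found in 17 of the 30, beside 35.4% of all promoters, and in 6 of the 10 members without overlap of the phases and 10 of the other 19 tested. These counts are a description, and no binding was measured. The windows of 30 bases shown are those of the 5 members with an unadjusted p under 0.05 that held a match, read 5′ to 3′ on the strand of the gene, with the box in capitals (ATTGG where it lies on the opposite strand).
PDHB, chr13:40167517-40167546, minus strand, box from position -32: ccgtgccctgccATTGGccggcaccggcgg
DLD, chr9:107642050-107642079, plus strand, box from position -67: ccccctcgcgggCCAATcgcgctgctccgg
IDH3A, chr7:47779037-47779066, minus strand, box from position -106: gcgagcccgacgATTGGccagcggagccgg
IDH1, chr15:111362348-111362377, minus strand, box from position -35: cggcgttcggcgATTGGtggcgtggcaggg
SUCLG2, chr13:49090705-49090734, minus strand, box from position -201: tcactgcaaagaCCAATaccaaggcctgtc
Positions count from the gene start at 0, with bases before it negative.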

How the data were processed

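The authors sequenced poly(A)-selected RNA of longissimus dorsi in 3 IP and 3 PP libraries, described as biological replicates. Clean reads were aligned with TopHat and transcripts assembled with Cufflinks, and the authors deposited expression per locus as TPM, 1 column per library. The methods name an earlier pig build, whereas the submitters' processing notes list Sscrofa11.1 beside TopHat. The tool that computed the TPM is not given in the sources used here. TPM are shares of a fixed total, so a few abundant loci lower all others, and no counting interval can be given.

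Symbols came from an Ensembl identifier table (9764 of 12671 loci matched), and coordinates and promoters from RefSeq on Sscrofa11.1. Log2(TPM + 1) of loci listed at 1 TPM or more in 3 or more libraries was fitted with limma 3.58.1 in R 4.3.3 (eBayes with trend, 2-sided, Benjamini-Hochberg over 10896 loci, threshold 0.05). The study's own tools for differential expression, NOISeq and Cuffdiff, were not run. Ratios were compared with exact permutation tests in scipy 1.17.1 (Python 3.11.15). The steps were tested on simulated data. Of 200 loci changed by a log2 fold change of 1, 2 or 3, the adjusted threshold recovered 0%, 62.5% and 91%. Alternatives were pseudocounts of 0.1 and 5, no filter and a filter of 5 TPM, median-ratio scaling, quantile normalization, the most abundant locus left out, no trend, a replicate block and each library left out. The members and lists were chosen with earlier results of these data known. All members found are named, with values per library for the 10 smallest p, the most abundant of each step and the ratio pairs, and the 4 pathway genes of smallest p. Promoters were built from the annotation after the files were seen, as no ready table was used. Reads shared with pseudogene copies were not examined. A gene of the pathway list is not reported here.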

Additional observations from a re-analysis of the deposited data

How the results depend on the processing

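No member passed the adjusted threshold in any of the 15 alternatives, and 22 of the 29 kept the sign of their log2 fold change in all that could be run. The simulated recovery of 0% at a log2 fold change of 1, with the main fit, limits what the lack of adjusted calls can show. The number of loci called (16) was 4 with a pseudocount of 5, 6 with the filter of 5 TPM, and 2 to 22 with a library left out. With the replicate number as a block it was 3. Muscle was taken after slaughter, so no animal can be in both phases. Deviations of same-numbered libraries correlated at -0.53, 0.20 and 0.22, and those of IP replicate 3 and PP replicate 1 at 0.64. Deviations from a mean of 3 libraries depend on each other, so these correlations cannot decide whether the numbers match in another way. With the replicate block 7 members had an unadjusted p under 0.05. No background share at that level is given for this fit, so the 7 cannot be set against all loci. Members higher at the IP at that level (8) numbered 2 with median-ratio scaling, 4 with quantile normalization, 5 without the most abundant locus, and 1 to 16 with a library left out, while those higher at the PP numbered 0 to 1. The members' median (0.45) was 0.13 with median-ratio scaling and 0.36 to 0.78 with a library left out. Its distance from all loci was 0.15 to 0.38 with a library left out. The median of all loci was -0.0060 with median-ratio scaling and -0.0054 with quantile normalization.

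Signs turned with median-ratio scaling for PDK1 (-0.22), PDK3 (-0.27), IDH3B (-0.10) and GOT2 (-0.0070), with quantile normalization for PDK1 (-0.21), PDK3 (-0.27) and IDH3B (-0.038), and without the most abundant locus for PDK1 (-0.049) and PDK3 (-0.11). With a library left out, PDK1 ran from -0.22 to 0.25, PDK2 from -0.033 to 1.08, PDK3 from -0.26 to 0.43, MDH1 from -0.12 to 0.61 and GOT1 from -0.21 to 0.76. The log2 ratios, IP minus PP, ran from -0.15 to 0.19 for SUCLA2 to SUCLG2, from -0.81 to 0.00025 for MDH1 to MDH2, from -0.61 to 0.55 for GOT1 to GOT2, from -0.54 to 0.54 for PDK2 to PDHA1 and from -0.12 to 0.55 for PC to PDHA1. The causes were not tested. With 3 libraries a phase and no read numbers, precision rests on the spread between libraries. In the limma standard errors and p-values this spread is moderated by that of all tested loci. For PDHB the standard error was 0.19, while its log2 values had SDs of 0.056 at the IP and 0.049 at the PP.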
